A study of Mus musculus with 24 samples.

Results

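The genes described here encode the AP-1 transcription factors and associated immediate early factors. They are the FOS family (Fos, Fosb, Fosl1 and Fosl2), the JUN family (Jun, Junb and Jund), Atf3, Egr1 and Ier3. All probe sets annotated to these 10 genes, of 18193 genes with a probe set of their own, were taken by annotation alone, which gave 14 of the 45037 probe sets of the table. The study followed C2C12, an immortalised line of mouse skeletal myoblasts, through differentiation into myotubes on Affymetrix mouse arrays. RNA was measured at 8 time points with 3 arrays each, 24 arrays in all, and a level below is the intensity of a probe set on a linear scale.

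Cells of every group were cultured in DMEM with 10% FBS before induction. The group called Day -1 held myoblasts at 50% confluency and the group called Day 0 held myoblasts at 90% confluency. Day 0.25 stood for 6 hours in medium with reduced serum, which is 2% by the sample labels while the methods of the study give another concentration, and Day 1, Day 2, Day 3, Day 4 and Day 5 followed in that medium, with the medium renewed every 2 days. The labels do not say on which days it was renewed, nor how long before RNA harvest. Whether the 3 arrays of a time point stand for separate cultures is not stated, and the p-values given here refer to the spread from array to array, and that spread may be technical.

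AP-1 is a dimer of bZIP proteins, in which a JUN protein pairs with another JUN, a FOS or an ATF protein and binds a short DNA element in its target genes. Many of these genes are immediate early genes, which are transcribed within minutes of a stimulus such as serum, without new protein synthesis, and whose mRNAs are short-lived. In cultured myoblasts, forced expression of FOS or JUN is known to hinder differentiation, and JUN can bind MYOD directly.

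The cells matched their label. All 10 markers of myoblasts and muscle (Myod1, Myf5, Des, Myog, Mymk, Myh3, Ckm, Acta1, Tnnt3 and Ttn) reached a mean of 100 on some day. Their summed level lay between 4028 on the lowest and 60191 on the highest array. None of the markers on the array of osteoblasts or chondrocytes, endothelial cells, leukocytes or neural cells reached a mean of 100, and their summed levels stayed at or under 19.5. Of 5 adipocyte markers, the transcription factor genes Pparg and Cebpa reached 100, with a summed level of the 5 between 104 and 334, while Adipoq, Fabp4 and Lep stayed under 6. The correlation of log2 intensity between arrays of 1 time point was between 0.962 and 0.996. In bulk RNA, fewer cells of a type and less RNA per cell cannot be told apart.

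Of the 14 probe sets, 11 had a mean of at least 100 on some day and were tested, and they covered 9 of the 10 genes. The probe set of Fosb, which encodes a FOS family partner of JUN, lay between 1.74 and 1.81 on all 24 arrays, where the median of all probe sets of an array was between 3.63 and 3.87. No level of Fosb could be read from it. A second probe set of Jund, between 1.75 and 1.84, and one of Fosl2, between 6.81 and 20.9, were also not tested. Fos had a mean of 100 only on Day 5, so that the test reached it only through its highest group. The other 8 genes had a tested probe set at or above 100 on all 8 days, and for each gene the tested probe set with the highest mean over all arrays is described first.

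Promoter sequences of 8 of the 10 genes, all but Fosl1 and Egr1, were found in the RefSeq table (GRCm38.p6), as windows from 250 bases before to 50 bases after the annotated start. The AP-1 element TGANTCA, the full cAMP response element TGACGTCA, the CArG box and the EGR site GCGTGGGCG were in none of the 8 windows on either strand, against 7.81%, 1.79%, 1.63% and 0.612% of 32851 promoters. The SP1 site GGGCGG was in 6 of 8 (35.7% of all promoters) and TATAAA in 2 of 8 (13.6%). The TATAAA of Fos lay before the annotated start, while that of Junb began at the start and ran into the transcript. After the sequences had been seen, the half-site TGACG was also counted, which overlaps the full element, and it was in the windows of Fos, Fosb, Junb and Atf3, 4 of 8 (20.8% of all promoters). The variant TGACATCA, known as a JUN and ATF2 site, was in that of Jun only (3.62%). A match is a description of the letters and not a bound site. Bases further than 250 before the start were not searched, so a motif missing from a window may lie upstream of it. The 150 bases before the start are shown for Fos, Junb, Atf3 and Jun, the members whose levels are set against each other below, with TGACG, TGACATCA and TATAAA in capitals and the rest in lower case. They lie at chr12:85473740-85473889 on the plus strand (Fos) and, on the minus strand, at chr8:84978749-84978898 (Junb), chr1:191183334-191183483 (Atf3) and chr4:95052223-95052372 (Jun).
Fos: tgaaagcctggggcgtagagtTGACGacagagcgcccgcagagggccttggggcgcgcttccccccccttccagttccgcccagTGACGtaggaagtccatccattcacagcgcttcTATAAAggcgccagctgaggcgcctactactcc
Junb: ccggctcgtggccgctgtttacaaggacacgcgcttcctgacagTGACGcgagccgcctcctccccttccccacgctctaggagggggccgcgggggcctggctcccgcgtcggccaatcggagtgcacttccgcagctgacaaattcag
Atf3: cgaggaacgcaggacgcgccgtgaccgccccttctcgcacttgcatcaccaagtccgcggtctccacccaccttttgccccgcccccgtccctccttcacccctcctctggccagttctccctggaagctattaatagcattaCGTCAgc
Jun: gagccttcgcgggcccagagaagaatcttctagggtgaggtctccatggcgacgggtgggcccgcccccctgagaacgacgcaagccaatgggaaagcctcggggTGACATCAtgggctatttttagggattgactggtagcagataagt
The Fos window held 2 copies of TGACG, at 129 to 125 and at 66 to 62 bases before the start, with TATAAA at 33 to 28 bases. In Junb it stood at 106 to 102 bases. In Atf3 the complement CGTCA ended 3 bases before the start, and in Jun the variant site stood at 45 to 38 bases.

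Fos, whose protein is the classical partner of JUN, had a range of 4.04 on the log2 scale, or 16.5-fold, between its lowest and highest day. With values below 50 raised to 50 its change between these days, Day -1 and Day 5, was 1.66, under those of Fosl1 (-3.07), Egr1 (2.86) and Junb (1.81), so that its place among the members depends on dim readings. It was lowest on Day -1, at 9.50, 10.0 and 9.20 on the 3 arrays. At 90% confluency it stood at 49.0, 34.6 and 30.0. The groups did not overlap, and the rise was 1.95 on the log2 scale (SE 0.26, adjusted p = 6.92e-06, limma's moderated test with Benjamini-Hochberg adjustment over the 13735 probe sets tested, as for all adjusted p-values here). Both levels were low on the scale of the arrays, and the log2 change is 0 when values below 50 are raised to 50. After 6 hours in reduced serum Fos read 20.7, 33.4 and 20.1, and on Day 1 it read 34.8, 42.1 and 35.2. Neither change passed the test (adjusted p = 0.060 and 0.078).

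From Day 2 onwards Fos rose, fell and rose again. Its arrays read 35.3, 45.8 and 55.2 on Day 2, and 110, 82.4 and 77.6 on Day 3. They read 29.5, 13.6 and 20.3 on Day 4, and 118, 187 and 178 on Day 5. No array of one day overlapped with those of the next day. The rise to Day 3 was 0.99 on the log2 scale (SE 0.26, adjusted p = 0.031), the fall to Day 4 was 4.41-fold (log2 change -2.14, adjusted p = 0.00043) and the rise to Day 5 was 7.83-fold (log2 change 2.97, adjusted p = 3.24e-06). The rise to Day 3 did not pass without Day 2 replicate 1 or 2 or without any single array of Day 3 (adjusted p between 0.053 and 0.119). With values below 50 raised to 50 the changes to Day 3, Day 4 and Day 5 were 0.78, -0.83 and 1.66, each still past the threshold. The rise to Day 5 had an adjusted p of 0.0515 when fitted to the 6 arrays of Day 4 and Day 5 alone.

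Fosl1 encodes FRA-1, a FOS family protein that lacks the strong activation domain of FOS. It went the other way over the course. Its arrays read 995, 854 and 1020 on Day -1, 396, 450 and 450 on Day 0, and 473, 614 and 525 after 6 hours. The level was thus lower by more than the spread at 90% confluency, by 2.21-fold (log2 change -1.14, SE 0.23, adjusted p = 0.00055), and the change over the first 6 hours did not pass (log2 0.31, adjusted p = 0.29). On Day 1 it read 389, 387 and 291, and on Day 2 105, 149 and 157. This second fall was 2.61-fold (log2 change -1.38, SE 0.23, adjusted p = 0.00010), and from Day 2 to Day 5 the daily means lay between 118 and 137 with no neighbouring change past the test.

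A second probe set for Fosl1 correlated with the first with an r of 0.987 over 24 arrays and fell from a mean of 435 ± 56.9 (SD, n = 3) on Day -1 to 29.2 ± 8.16 on Day 5. It fell from Day -1 to Day 0 by 1.26 on the log2 scale (adjusted p = 6.09e-05) and from Day 1 to Day 2 by 1.54 (adjusted p = 9.10e-06). It also fell between 6 hours and Day 1 by 0.71 (adjusted p = 0.015), where the first probe set had a change of -0.60 that did not pass (adjusted p = 0.062).

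Fosl2 encodes FRA-2, the remaining FOS family member. It stayed between 520 and 829 on all 12 arrays from Day -1 to Day 1, and none of its 3 changes up to Day 1 passed. On Day 1 the arrays read 672, 620 and 829, and on Day 2 1382, 924 and 1394. Every array of Day 2 was above every array of Day 1, and the rise was 1.73-fold (log2 change 0.79, SE 0.19, adjusted p = 0.0029). It then read between 1095 and 1893 on all arrays of Day 3, Day 4 and Day 5, and the rise from Day 4 to Day 5 of 0.40 did not pass (adjusted p = 0.28). The second Fosl2 probe set, dim and not tested, did not share the step, with means of 15.0 on Day 1 and 14.9 on Day 2. Its r to the first was 0.22 over 24 arrays.

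Fosl1 and Fosl2 ran opposite to each other. Over the 8 time point means of log2 intensity their Pearson's r was -0.94, the lowest of the 36 member pairs, which describes 8 points from the same arrays and is given without a test. Both had a change past the threshold between Day 1 and Day 2, downwards for Fosl1 and upwards for Fosl2.

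**Figure D1:**
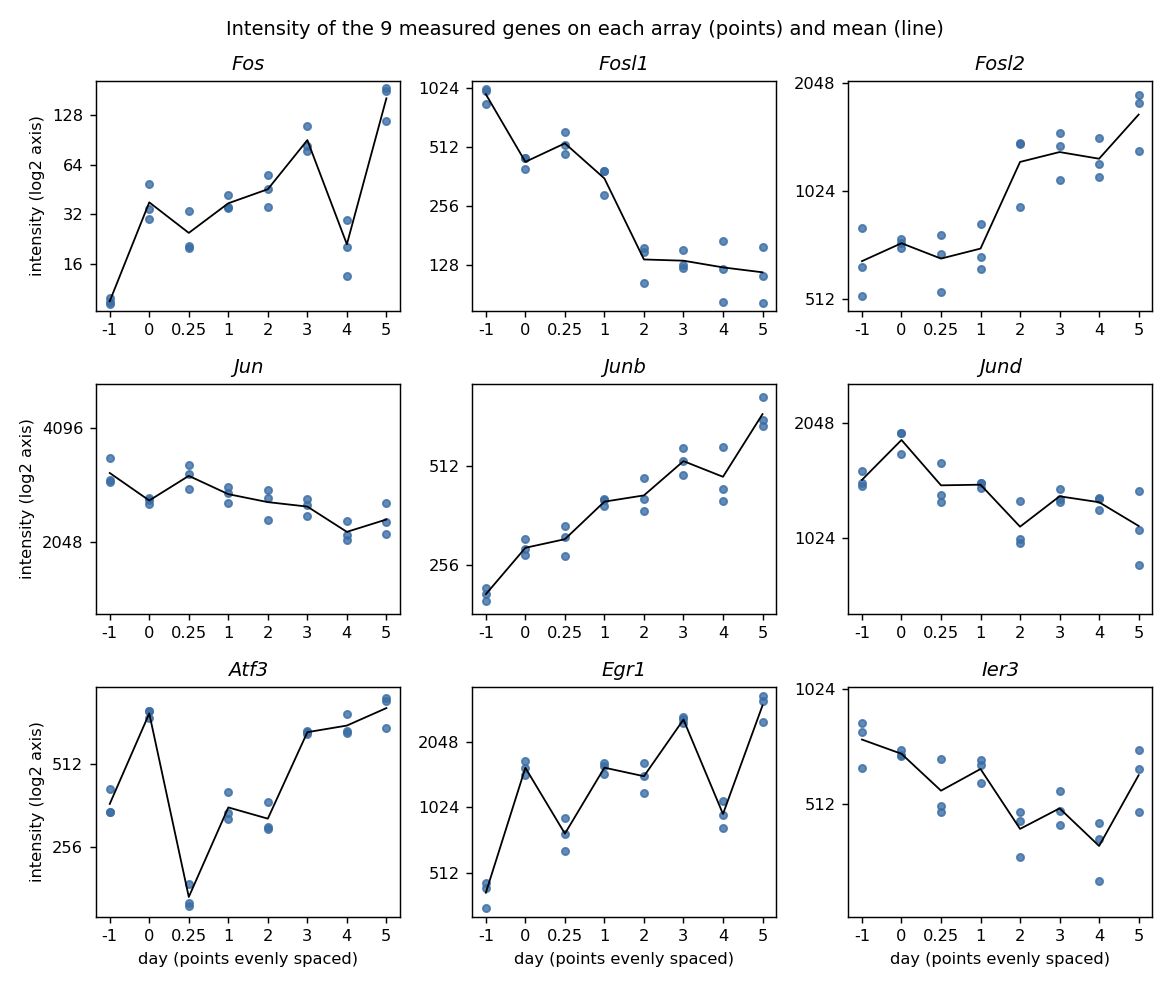
Intensity (log2 axis, arbitrary units, a separate range in each panel) against day (evenly spaced) for the 9 tested genes, with 1 point per array and a line through the means of 3 arrays. Fosl1 falls from a mean of 957 to 118, Fosl2 steps up between Day 1 and Day 2, and Fos and Egr1 are high on Day 3 and Day 5 and low on Day 4.

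Of the JUN family genes, Jun and Jund had a range of under 2-fold over the course and Junb one of 3.50-fold. Jun, whose protein pairs with FOS family proteins in AP-1, stayed between 2080 and 3411 on all 24 arrays. It read 2986, 3411 and 2948 on Day -1 and 2681, 2649 and 2587 on Day 0, a fall of 0.24 on the log2 scale (SE 0.09, adjusted p = 0.044). This call was lost without any 1 of 10 arrays (adjusted p between 0.050 and 0.201), namely Day -1 replicate 1 or 2, Day 0 replicate 1, 2 or 3, replicate 1 of Day 0.25, Day 1 or Day 2, and replicate 3 of Day 3 or Day 4. On Day 5 it read 2597, 2312 and 2149, below every array of Day -1, and the fall over the whole course was 1.33-fold (log2 change -0.41, adjusted p = 0.00065). The second Jun probe set, with an r of 0.61 to the first, did not share that fall. It read 755, 720 and 710 on Day -1 and 737, 697 and 668 on Day 5 (log2 change -0.06, SE 0.09, adjusted p = 0.61). No neighbouring change of this second probe set passed.

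Junb encodes a JUN protein that is a weaker activator than JUN on single AP-1 elements. It was lowest on Day -1, at 200, 218 and 209, and highest on Day 5, at 701, 825 and 673, a rise of 3.50-fold (log2 change 1.81, SE 0.13, adjusted p = 1.25e-10). It climbed in steps. The arrays of Day 0 read 274, 306 and 285, above all of Day -1 (log2 change 0.47, adjusted p = 0.0057). A further rise of 0.38 came between 6 hours, at 272, 311 and 336, and Day 1, at 402, 386 and 406 (adjusted p = 0.032). That rise did not pass without Day 0.25 replicate 1 or without any 1 of the 3 Day 1 arrays (adjusted p between 0.060 and 0.153). From Day 4, at 585, 400 and 435, to Day 5 it rose by 0.64 (SE 0.13, adjusted p = 0.0082). Without replicate 2 of Day 4 or of Day 5 this adjusted p was 0.053 or 0.066, and it was 0.416 in the fit to these 6 arrays.

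Jund encodes a JUN protein that is present in many resting cells. It was highest at 90% confluency, at 1923, 1692 and 1924, after 1530, 1426 and 1398 on Day -1, and lowest on Day 2, at 992, 1277 and 1013. It rose to Day 0 by 0.35 on the log2 scale (adjusted p = 0.036), fell over 6 hours to 1328, 1611 and 1272, by 0.40 (adjusted p = 0.018), and fell from Day 1 to Day 2 by 0.38 (adjusted p = 0.025). These are changes of 1.27-fold, 1.32-fold and 1.30-fold with an SE of 0.13 on the log2 scale, and none of them held without each array. The rise was lost without Day -1 replicate 2 or 3 or Day 0 replicate 1 or 3 (adjusted p between 0.089 and 0.106), and the first fall without replicate 1 or 3 of Day 0 or Day 0.25 (0.057 to 0.089). The second fall was lost without Day 1 replicate 1 or 2 or Day 2 replicate 1 or 3 (0.063 to 0.111). On Day 5 Jund read 1070, 869 and 1357, below Day -1 by 0.42 (adjusted p = 0.0068, and 0.066 without Day 5 replicate 2).

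Atf3 encodes a bZIP protein of the ATF and CREB family that is induced by many stresses and can pair with JUN proteins. It had the lowest adjusted p of any member change between neighbouring time points, at the first 6 hours in reduced serum. It read 416, 345 and 343 on Day -1 and 752, 803 and 799 on Day 0, a rise of 2.14-fold (log2 change 1.10, SE 0.12, adjusted p = 5.97e-07). After 6 hours it read 157, 189 and 161, a fall of 4.66-fold (log2 change -2.22, SE 0.12, adjusted p = 5.27e-11). The 6-hour arrays were below every other array of the course, Day -1 included.

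Atf3 then came back in separate steps. It was higher on Day 1, at 341, 325 and 407, by 1.08 on the log2 scale (adjusted p = 2.36e-06), and did not change past the test to Day 2, at 304, 298 and 374 (adjusted p = 0.37). From Day 2 to Day 3, at 662, 678 and 672, it rose by 1.05 (SE 0.12, adjusted p = 7.04e-05). It stayed there, at 680, 667 and 780 on Day 4 and 892, 696 and 874 on Day 5. Unlike the arrays of Fos, the Day 4 arrays of Atf3 overlapped with those of Day 3 and Day 5, and neither change passed (log2 0.08 and 0.21). The 5 Atf3 changes that passed, that over the whole course included, kept their call in each of the 32 alternative settings.

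Egr1 encodes a zinc finger transcription factor and is not an AP-1 protein, but is induced by serum together with Fos. It was lowest on Day -1, at 434, 458 and 352, and read 1438, 1557 and 1677 on Day 0, a rise of 3.77-fold (log2 change 1.91, SE 0.15, adjusted p = 3.86e-09). After 6 hours it had fallen to 646, 911 and 769, by 2.02-fold (adjusted p = 1.87e-05), and on Day 1 it was back at 1585, 1640 and 1453, a rise of 2.03-fold (adjusted p = 4.42e-05). The 6-hour level was between those of Day -1 and Day 0 and overlapped with neither.

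From Day 2, at 1434, 1640 and 1198, Egr1 followed the same up, down and up course as Fos. It read 2676, 2601 and 2508 on Day 3, 1095, 827 and 942 on Day 4, and 2531, 3336 and 3167 on Day 5. The rise to Day 3 was 1.84-fold (log2 change 0.88, SE 0.15, adjusted p = 0.0019), the fall to Day 4 was 2.73-fold (log2 change -1.45, adjusted p = 4.69e-05) and the rise to Day 5 was 3.15-fold (log2 change 1.66, adjusted p = 3.24e-06). The arrays of Day 4 were below all of those of Day 2, Day 3 and Day 5. In the fit to the 6 arrays of Day 4 and Day 5 the adjusted p of the last rise was 0.0515.

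Ier3 encodes an immediate early protein known for a role in cell survival and ERK signalling, and does not bind DNA as a bZIP factor. It read 791, 637 and 834 on Day -1 and 683, 707 and 685 on Day 0, with overlap and no change past the test (adjusted p = 0.58). Between Day 1, at 648, 666 and 579, and Day 2, at 372, 460 and 487, it fell by 0.53 on the log2 scale (SE 0.16, adjusted p = 0.012, and 0.075 without Day 2 replicate 1). From Day 4, at 456, 413 and 321, to Day 5, at 487, 630 and 707, it rose by 0.61 (adjusted p = 0.037). That rise was lost without replicate 2 or 3 of Day 4 or of Day 5 (adjusted p between 0.082 and 0.201). The level on Day 5 was not separated from that on Day -1 (log2 change -0.32, SE 0.16, adjusted p = 0.082).

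Over all 8 time points, the moderated F test passed for 9 of 9 tested genes, where 88.8% of all probe sets tested passed, so that this count says little about the members. With a range of the 8 means of at least 2-fold as well, 6 of 9 passed (Fos, Fosl1, Fosl2, Junb, Atf3 and Egr1), against 44.6% of probe sets. Jun, Jund and Ier3 had ranges of 1.43-fold, 1.71-fold and 1.91-fold.

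**Figure D2:**
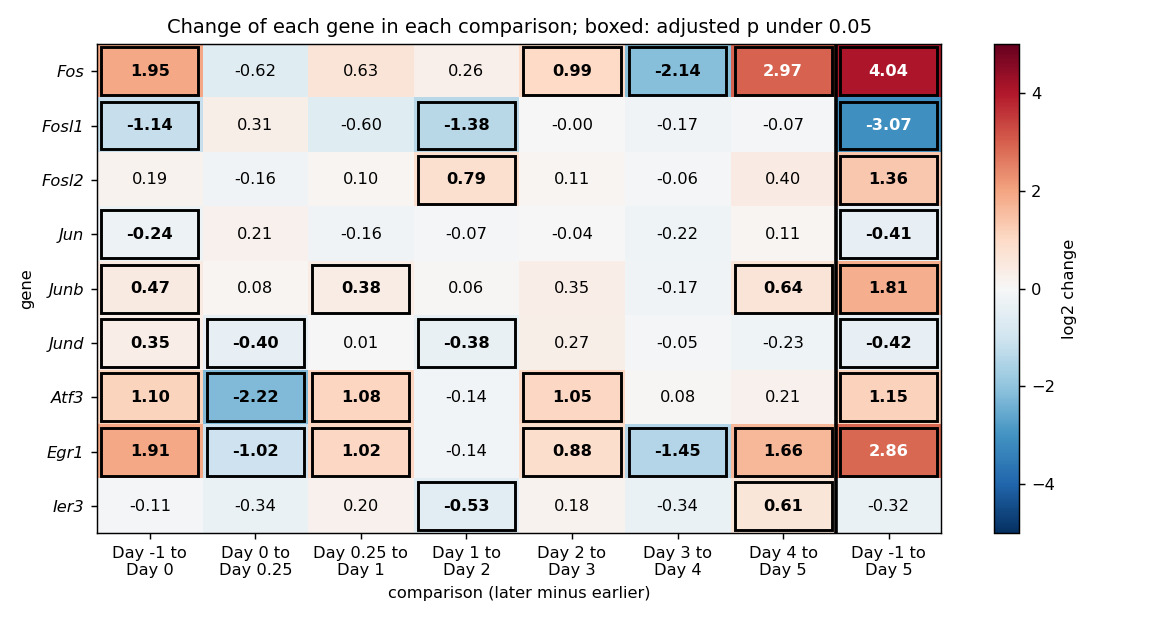
Log2 change (later minus earlier time point, colour and printed value) of the 9 tested genes (rows) in the 7 neighbouring comparisons and between Day -1 and Day 5 (columns), with a box around changes at an adjusted p under 0.05. In neighbouring comparisons, the changes of Fos to Day 4 (-2.14) and to Day 5 (2.97) and of Atf3 to Day 0.25 (-2.22) are over 2 in size. Between Day -1 and Day 5, those of Fos (4.04), Fosl1 (-3.07) and Egr1 (2.86) are. With values below 50 raised to 50 the changes of Fos become -0.83 to Day 4, 1.66 to Day 5 and 1.66 between Day -1 and Day 5.

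The comparison of myoblasts at 50% and 90% confluency, before serum was reduced, changed more members than any other interval between neighbouring time points. Fos, Junb, Jund, Atf3 and Egr1 rose, 5 of 9 where 23.3% of probe sets rose. Fosl1 and Jun fell, 2 of 9 where 21.7% fell. Of all probe sets, nearly as many changed from Day 0 to Day 0.25 (22.4% rose, 20.9% fell) and from Day 1 to Day 2 (22.8% and 21.7%). The count of 7 members was 5 in the fit to these 6 arrays and 4 with a 2-fold change also required. The change of Fos was 0 with values below 50 raised to 50, and the calls of Jun and Jund were lost without single arrays. The median log2 change of the 9 genes was 0.35, and that of all probe sets tested was 0.00.

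Among 16 tested genes of AP-1 dimer partners and relatives (ATF, CREB, MAF and NRF bZIP genes), 10 rose and 2 fell in this interval (median 0.46). The list is broader than the partners of JUN and FOS proteins, and pairing was not tested. Ddit3, which encodes the stress-induced bZIP protein CHOP, rose from 208 to 1431 (log2 change 2.80, adjusted p = 6.14e-09). Atf6, a sensor of stress in the endoplasmic reticulum, rose from 196 to 484 (log2 change 1.30, adjusted p = 9.18e-08). Atf2, a JUN partner, fell by 0.51 (adjusted p = 0.0029) and Maff, a small MAF gene, by 0.49 (adjusted p = 0.034).

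Of 35 other immediate early genes tested, 9 rose and 10 fell between Day -1 and Day 0 (median 0.06). Gadd45a, a gene of growth arrest and DNA damage, rose from 441 to 2105 (log2 change 2.26, adjusted p = 9.11e-12), and Ppp1r15a, whose protein GADD34 reverses the block of translation under stress, rose from 154 to 539 (log2 change 1.81, adjusted p = 5.99e-12). Dusp5, a phosphatase of ERK, fell by 1.07 (adjusted p = 2.59e-07) and Hbegf, a growth factor of the EGF family, by 1.42 (adjusted p = 7.73e-07). The list therefore went in both directions. Among 8 genes of SRF and the ternary complex factors, which act on the Fos and Egr1 promoters, 2 rose and 4 fell (median -0.33). Srf itself rose by 0.49 (adjusted p = 0.023), Fhl2, a LIM-only cofactor, by 0.63 (adjusted p = 0.0061), Elk3 fell by 0.69 (adjusted p = 0.00051) and Ets1 by 0.88 (adjusted p = 0.00056).

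During the first 6 hours in reduced serum the members fell or did not pass. Jund, Atf3 and Egr1 fell, 3 of 9 where 20.9% of probe sets fell. By limma 0 of 9 rose, where 22.4% of probe sets rose, and 1 of 9 rose at an unadjusted p under 0.05, Jun with a log2 change of 0.21. Without Day 0.25 replicate 2 the number of members past the threshold was 6 rather than 3. The median log2 change of the 9 genes was -0.34, against 0.03 for all probe sets tested.

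Between 6 hours and Day 1, Junb, Atf3 and Egr1 rose, 3 of 9 where 11.6% of probe sets rose. None of the 9 fell by limma's adjusted p, 0 of 9 where 15.4% of probe sets fell, and 1 of 9, Fosl1, fell at an unadjusted p under 0.05. Atf3 and Egr1 thus both had a change in each of the first 3 intervals, up, down and up, each past the threshold.

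The dimer partners and relatives had the same alternation in their counts, with 10 up and 2 down before the serum was reduced. Over the first 6 hours 1 rose and 10 fell (median -0.77), and 10 rose and 1 fell to Day 1 (median 0.48). Of all probe sets tested, 23.3%, 22.4% and 11.6% rose and 21.7%, 20.9% and 15.4% fell in these intervals. Ddit3 read 1170, 1595 and 1528 on Day 0 and 145, 198 and 122 after 6 hours, a log2 change of -3.22 (adjusted p = 1.28e-09). Atf5, a bZIP gene that acts downstream of ATF4, read 1858, 2307 and 2250 and then 245, 312 and 249 (log2 change -3.00, adjusted p = 1.26e-09). No array of one time point overlapped with those of the other for either gene. Atf2 was the gene of this list that rose (log2 change 0.52, adjusted p = 0.0033). To Day 1, Atf4, the bZIP factor of the amino acid and unfolded protein responses, rose from 1938 to 3768 (log2 change 0.96, adjusted p = 2.35e-07), and Atf5 rose by 1.54 (adjusted p = 1.96e-05). Mafk fell by 0.32 (adjusted p = 0.043).

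**Figure D3:**
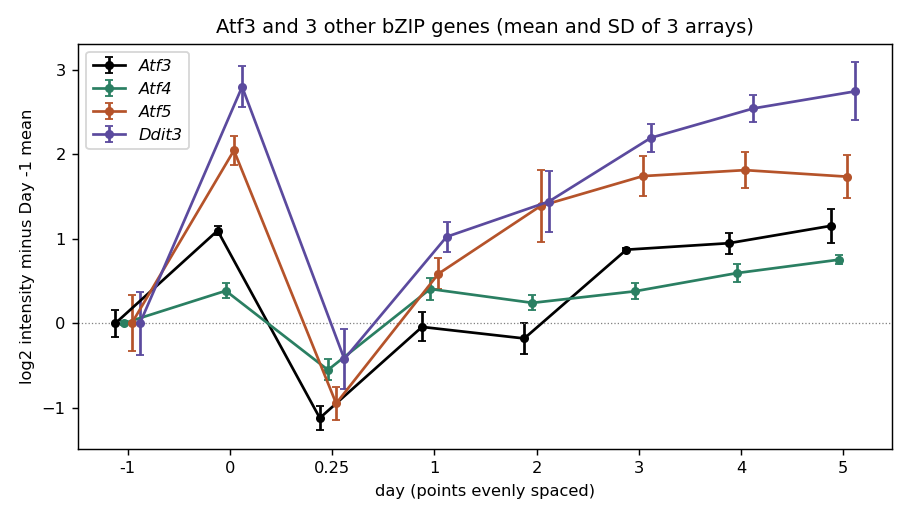
Log2 intensity minus the Day -1 mean (vertical axis) against day (evenly spaced) for Atf3, Atf4, Atf5 and Ddit3, as the mean of 3 arrays with SD bars. All 4 genes are higher on Day 0 than on Day -1 and lower at Day 0.25 than on Day 0, with log2 changes of -2.22 for Atf3, -3.00 for Atf5 and -3.22 for Ddit3.

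Of the 35 other immediate early genes, 7 rose and 13 fell over the first 6 hours (median -0.28). Of all probe sets tested, 22.4% rose and 20.9% fell. Ccn2, a matricellular growth factor gene, rose from 256 to 1185 (log2 change 2.20, adjusted p = 3.54e-07), and Egr3, a relative of Egr1, from 34.7 to 144 (log2 change 2.07, adjusted p = 7.82e-08), while Egr1 fell. Ppp1r15a fell by 1.87 (adjusted p = 9.83e-12) and Gadd45a by 1.96 (adjusted p = 2.11e-10). From 6 hours to Day 1, 10 of the 35 rose and 5 fell, where 11.6% of probe sets rose and 15.4% fell. Gadd45a rose by 1.70 (adjusted p = 3.42e-09) and Zfp36l1, an mRNA decay factor, by 1.42 (adjusted p = 1.67e-07), while Ccn2 fell by 1.87 (adjusted p = 6.44e-06) and Hbegf by 0.88 (adjusted p = 0.00046).

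Between Day 1 and Day 2, Fosl2 rose, 1 of 9 where 22.8% of probe sets rose. Fosl1, Jund and Ier3 fell, 3 of 9 where 21.7% fell. The count of 4 was 2 without Day 2 replicate 1. Fos, Junb, Atf3 and Egr1 had log2 changes between -0.14 and 0.26, none of which passed. Of the 16 dimer partners and relatives, 6 rose and 1 fell. Atf6 rose by 1.03 (adjusted p = 2.72e-06) and Nfe2l1, a MAF partner, by 1.13 (adjusted p = 5.93e-06), and Creb5 fell by 1.36 (adjusted p = 8.58e-05).

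Genes known as AP-1 targets in other cells mostly fell at this step, and a link to any member was not tested. Of 15 tested, 1 rose and 9 fell between Day 1 and Day 2, where 22.8% of probe sets rose and 21.7% fell. Their median log2 change was -0.74, against -0.01 for all probe sets tested. Plaur, the urokinase receptor, read 634, 627 and 545 on Day 1 and 197, 227 and 297 on Day 2 (log2 change -1.34, adjusted p = 1.39e-06). Ezr, which encodes the membrane linker ezrin, fell by 0.85 (adjusted p = 3.92e-05). Ptgs2, the inducible cyclooxygenase, was the one that rose, from 127 to 321 (log2 change 1.32, adjusted p = 3.43e-07). Over the whole course 4 of these 15 rose and 10 fell, where 31.9% of probe sets rose and 38.4% fell.

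Among proteins that act on JUN, FOS or EGR proteins, 2 of 8 tested genes rose and 2 fell between Day 1 and Day 2. These counts are near the shares of all probe sets tested, of which 22.8% rose and 21.7% fell. Fbxw7, part of a ubiquitin ligase for JUN, rose from 136 to 239 (log2 change 0.79, adjusted p = 2.70e-05), and Cop1, also a ubiquitin ligase for JUN, rose by 0.50 (adjusted p = 0.0015). Nab1, a corepressor of EGR proteins, fell from 714 to 418 (log2 change -0.78, adjusted p = 5.35e-05). Cops5, which binds JUN, fell by 0.28 (adjusted p = 0.035).

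From Day 2 to Day 5 few probe sets changed from day to day, while several members did. The members were chosen with earlier results of these data known. Fos, Atf3 and Egr1 rose from Day 2 to Day 3, 3 of 9 where 3.23% of probe sets rose. By limma 0 of 9 fell where 2.96% of probe sets fell, and 0 of 9 fell at an unadjusted p under 0.05. Fos and Egr1 fell from Day 3 to Day 4, 2 of 9 where 0.663% of probe sets fell. None of the 9 rose, at an adjusted or an unadjusted p under 0.05, where 0.473% of probe sets rose at the adjusted threshold. From Day 4 to Day 5, Fos, Junb, Egr1 and Ier3 rose, 4 of 9 where 1.38% of probe sets rose. Without Fos, which was tested only because of its level on Day 5, 3 of 8 rose. Here too 0 of 9 fell by limma, adjusted or not, where 2.12% of probe sets fell. Fos also stands in the counts of the 2 earlier steps. Without it, Atf3 and Egr1 rose to Day 3 and Egr1 alone fell to Day 4. In the fits to the 6 arrays of each pair of days, 2 members passed to Day 3, 1 to Day 4 and 0 to Day 5. Fos was below the level filter in the fits to Day 3 and to Day 4 and was not tested there. The count from Day 4 to Day 5 was 2 without replicate 2 of Day 4 or of Day 5.

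Means that went up, down and up over Day 2, Day 3, Day 4 and Day 5 were found for 5 of 9 members (Fos, Fosl2, Junb, Egr1 and Ier3) and for 14.8% of probe sets tested. With each of the 3 changes past the threshold there were 3 such probe sets of 13735, or 0.0218%, those of Fos, Egr1 and Ier2. Fos was tested only through its level on Day 5, where the last rise ends, and without Fos the only such member is Egr1. In the fit to the 6 arrays of Day 4 and Day 5 the last rise of both members had an adjusted p of 0.0515. The up, down and up pattern was noticed after the values had been seen, so it is a description and carries no test of its own. Ier2, another immediate early gene, read 613, 740 and 564 on Day 2 and 1075, 1118 and 947 on Day 3. It read 684, 529 and 529 on Day 4 and 1132, 1755 and 1492 on Day 5. As with Egr1, its arrays of Day 3 and Day 5 were above all of those of Day 2 and Day 4.

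**Figure D4:**
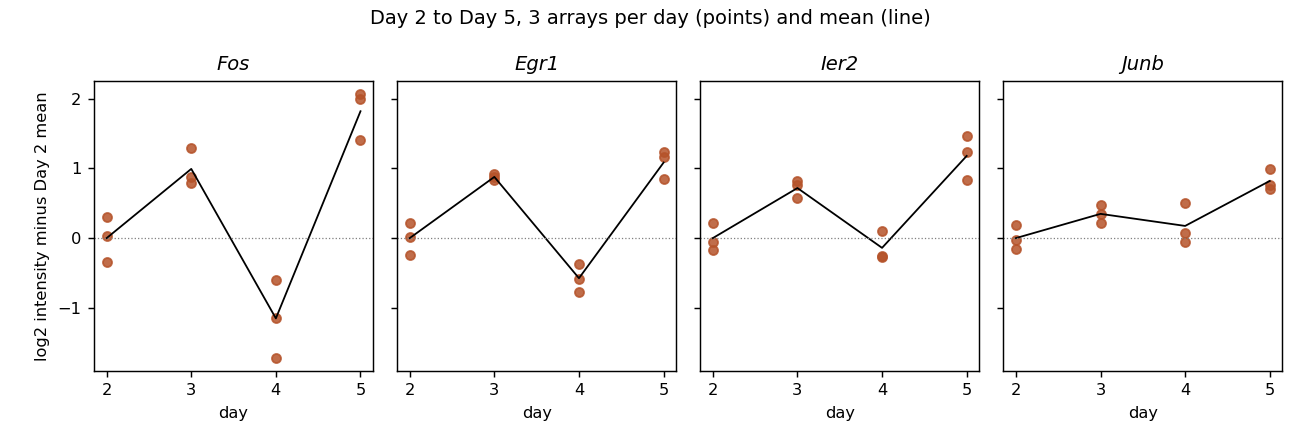
Log2 intensity minus the Day 2 mean (vertical axis, shared by all panels) against day for Fos, Egr1, Ier2 and Junb, with 1 point per array and a line through the means. The means of Fos, Egr1 and Ier2 are above Day 2 on Day 3 and Day 5 and below it on Day 4, and the Day 4 arrays of Junb overlap with those of Day 2 and Day 3.

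Other immediate early genes moved in part the same way. Of 35, 11 rose and 2 fell to Day 3, 1 rose and 2 fell to Day 4, and 5 rose and 1 fell to Day 5, each against the day before. Of all probe sets tested, 3.23%, 0.473% and 1.38% rose and 2.96%, 0.663% and 2.12% fell in these steps. Ppp1r15a rose to Day 3 by 1.25 (adjusted p = 2.26e-07) and Ccn1, a matricellular gene, by 1.14 (adjusted p = 0.0012). The Krüppel-like factor genes Klf10 and Klf2 fell by 0.70 and 0.67 (adjusted p = 0.0044 and 0.023). Errfi1, a feedback inhibitor of the EGF receptor, fell from 1508 on Day 3 to 650 on Day 4 (log2 change -1.22, adjusted p = 4.69e-05) and rose to 1433 on Day 5 (log2 change 1.14, adjusted p = 5.58e-05). Gadd45a was the one that rose to Day 4 (log2 change 0.49, adjusted p = 0.043), and Klf2 fell again to Day 5 by 0.89 (adjusted p = 0.0068).

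Kinases and phosphatases upstream of AP-1 had few such changes. Of 14 tested, 1 rose to Day 3 (Dusp1, a MAP kinase phosphatase and itself an immediate early gene, by 0.45, adjusted p = 0.0077). Dusp6, a phosphatase of ERK, was the only one past the threshold in the next 2 steps, with a fall to Day 4 of 0.54 (adjusted p = 0.0046) and a rise to Day 5 of 0.35 (adjusted p = 0.029). Over the whole course 1 of the 14 rose (Gsk3b, by 0.87, adjusted p = 1.56e-06) and 8 fell, with Dusp4 lower by 2.36 (adjusted p = 3.94e-11) and Dusp10 by 0.94 (adjusted p = 2.63e-07). Of all probe sets tested, 31.9% rose and 38.4% fell from Day -1 to Day 5.

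Between the ends of the course, 5 of 9 members rose from Day -1 to Day 5 where 31.9% of probe sets rose (Fos, Fosl2, Junb, Atf3 and Egr1), and 3 of 9 fell where 38.4% fell (Fosl1, Jun and Jund). Without Fos, which the filter let in through Day 5, 4 of 8 rose. The rises were 16.5-fold for Fos (log2 change 4.04, and 1.66 with values below 50 raised to 50), 7.25-fold for Egr1, 3.50-fold for Junb, 2.57-fold for Fosl2 and 2.23-fold for Atf3. Fosl1 fell 8.38-fold. The shares are close to those of all probe sets for the falls. The median log2 change of the 9 genes, Fos included, was 1.15 against -0.08 for all probe sets tested. That median is the value of Atf3, and without Fos it would be lower, between those of Ier3 (-0.32) and Atf3 (1.15). Between these ends, 10 of the 16 dimer partners and relatives rose and 2 fell. Maf, a large MAF transcription factor gene, rose from 63.7 to 640 (log2 change 3.34, adjusted p = 7.15e-14), Atf6 rose by 2.07 (adjusted p = 1.03e-11), and Maff and Creb5 fell by 1.55 and 1.48 (adjusted p = 2.38e-07 and 7.12e-06).

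Of the other immediate early genes, 17 of 35 rose and 11 fell between the ends, where 31.9% of probe sets rose and 38.4% fell. Gadd45a, at 441 on Day -1 and 7460 on Day 5, rose by 4.08 on the log2 scale (adjusted p = 1.71e-16). Dusp5 fell by 1.96 (adjusted p = 4.06e-12). Among AP-1 targets, Ptgs2 rose from 168 to 1501 (log2 change 3.17, adjusted p = 5.40e-14) and Cdkn1a, the CDK inhibitor p21, from 1002 to 5177 (log2 change 2.37, adjusted p = 6.21e-11). Plaur fell by 2.64 (adjusted p = 5.92e-12) and Ccna2, which encodes cyclin A, had a log2 change of -5.10 (adjusted p = 3.80e-11).

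Genes whose course was most like each member were taken by Pearson's r over the 8 time point means of log2 intensity among 7907 genes, as a description over 8 points that share their arrays. For Fos these were Egr1 (r = 0.965), Ier2 (0.934) and Kctd15 (0.931), and for Egr1 Fos, Kctd15 (0.936) and Ier2 (0.927). These are the members whose nearest genes were other immediate early genes. Kctd15 itself rose from 78.6 to 123 between Day -1 and Day 0 (log2 change 0.65, adjusted p = 7.55e-06) and from 115 to 154 between Day 4 and Day 5 (log2 change 0.42, adjusted p = 0.011).

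The nearest genes of Fosl1 were Pcolce2, Rbmx2 and Cenpu (r between 0.996 and 0.998), of which Pcolce2, a gene of procollagen processing, fell from 1625 to 198 and Cenpu, a centromere gene, from 149 to 18.0 between the first and last day. Those of Fosl2 were Rab33b, Acad11 and Reck (0.990 to 0.995), and Reck, an inhibitor of matrix metalloproteinases, rose from 13.1 to 103. Those of Junb were 2610008E11Rik, Cstf2t and Rb1cc1 (0.974 to 0.980). Jun was followed most closely by Mtmr12, Inpp5f and Trp53bp2 (0.986 to 0.997), Jund by Rexo2, Ddost and Drg1 (0.970 to 0.982), and Atf3 by Shox2, Slc25a33 and Eif2s2 (0.964 to 0.972). The highest values for Ier3 were lower, with Hspb6, Timp3 and Chst1 between 0.883 and 0.893.

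Among the members themselves, Fos and Egr1 were the most alike of the 36 pairs, followed by Fosl2 and Junb (0.89) and by Fosl1 and Jun (0.88). Fosl1 ran against Junb (-0.91) as it did against Fosl2. Atf3 had no r above 0.59 with any other member.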

How the data were processed

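Time points and replicate numbers of the 24 arrays of C2C12 RNA came from the sample labels. By the methods of the study, the authors made the deposited probe set intensity by GC-RMA, took it from log2 back to a linear scale and brought every array to a common trimmed mean. In the submitters' processing notes GCRMA and MAS5 are named. Log2 intensities of all 24 arrays were fitted with limma 3.58.1 in R 4.3.3, in 1 fit of 8 time points, over the 13735 probe sets whose mean reached 100 on 1 or more days. The 64 control probe sets were left out. Contrasts between time points and a moderated F test were adjusted by Benjamini-Hochberg with a threshold of 0.05, and the fit was tested on simulated data. Named were all members, the 3 genes most like each, and in each list up to 2 rising and 2 falling genes with the lowest adjusted p. The lists held AP-1 dimer partners and relatives, other immediate early genes, and SRF and ternary complex factors. They also held upstream kinases and phosphatases, regulators of the proteins, AP-1 targets and cell type markers. Members and lists were chosen with earlier results of these data known. The number of arrays limits the precision. Of the non-control probe sets, 34945 had 1 gene symbol, 932 had several and 9160 had none here, and promoters were matched by gene identifier. Alternatives were the 6 arrays of 2 time points, a replicate block, linear intensities, other level filters, a floor of 50, quantile normalization, an intensity trend, another choice of probe set, a 2-fold threshold and leaving out arrays.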

Additional observations from a re-analysis of the deposited data

How the results depend on the processing

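Of 34 member changes past the threshold, 21 kept their call in all of the up to 32 alternatives that gave a value for them, 13 lost it in at least 1, and 0 reversed. A further 5 lost it only when all arrays of a replicate number were left out. These 5 were Junb from Day -1 to Day 0 (adjusted p = 0.060), Fosl2 from Day 1 to Day 2 (0.103), Egr1 from Day 2 to Day 3 (0.159) and the 2 named below. The remaining 16 changes kept their call throughout. With a change of at least 2-fold also required, the number of changed members was 4 between Day -1 and Day 0, 1 between Day 1 and Day 2, 1 between Day 2 and Day 3, and 2 between Day 4 and Day 5. The fit to 6 arrays gave 1 for Day 3 to Day 4, where Fos was below the level filter and not tested, and 0 for Day 4 to Day 5. A level of at least 200, which leaves Fos out, gave 1 for Day 3 to Day 4. When arrays were left out, singly or, as chosen after seeing the data, by replicate number at every time point, the counts ranged from 4 to 7 up to Day 0, from 2 to 6 up to Day 0.25, from 2 to 4 up to Day 1, from 1 to 4 up to Day 2, from 1 to 3 up to Day 3, from 0 to 2 up to Day 4, from 2 to 4 up to Day 5 (each from the time point before), from 7 to 9 between Day -1 and Day 5, and from 8 to 9 for the F test. The 0 up to Day 4 came without replicate 3 at every time point, with Fos at a log2 change of -2.25 (adjusted p = 0.155) and Egr1 at -1.47 (adjusted p = 0.092), a fit of 16 arrays.

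Replicate numbers were not taken to pair the samples, since no label says that they do and not every same-numbered pair had an r over 0.1. Of 21 pairs, 12 did, including all 3 between Day 3 and Day 4 (0.21 to 0.35). Of 21 arrays, 9 were most like the same-numbered array of the time point before, and the r of same-numbered deviations lay between -0.51 and 0.56. With a replicate block, 5 members passed for Day -1 to Day 0 (Jun and Jund were lost), 3 for Day 4 to Day 5 (Ier3 was lost, adjusted p = 0.053) and as many as without it in the other comparisons. A dim probe set such as that of Fos before Day 5 lies low on the scale, and its fold changes depend on the background correction of the authors.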
